A study of Mus musculus with 7 samples.

Results

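The enzymes that add or remove acetyl and methyl groups on histone lysines were compared between 2 libraries of mouse sinoatrial node, the heart's pacemaker tissue. Members were taken by symbol from the families Hdac, Sirt, Kdm, Kat, Setd, Suv, Ezh and Prdm, which gave 62 genes. Kdm5c, Kdm5d and Kdm6a, which are sex-linked, were left out, which left 59 genes. The X-linked Hdac6, Hdac8 and Suv39h1 were kept. Of the 59 genes, 3 had a mean of under 1 FPKM (fragments counted relative to transcript length and to the library's total). This left 56 members among 15965 genes with a completed comparison, and 13409 genes of the table passed the same minimum once small RNAs were set aside. The pattern also takes enzymes of other proteins, such as the mitochondrial sirtuins and Setd3, and it misses enzymes listed under older symbols, which are described with their partners further on.

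The series holds 7 samples of strain Sv129 taken 3 weeks after birth, all of them with floxed alleles of Baf250a (symbol Arid1a), which encodes a subunit of BAF, a remodeller of nucleosomes. The Cre library came from Baf250af/f;Hcn4CreERT2 mice 6 days after tamoxifen, and the control library of the same day came from Baf250af/f mice without Cre. A time series of 5 further libraries from Baf250af/f;Hcn4CreERT2 mice, a control and samples at 16, 20, 24 and 48 h, was not analysed here. Hcn4CreERT2 is a tamoxifen-activated recombinase driven from the gene of the main pacemaker channel, so the floxed alleles are kept in the cells of the tissue that do not express Hcn4. The labels give neither the number of mice in a library, nor their sex, nor whether the control mice received tamoxifen. Each genotype has 1 library, so differences are given without replicates and without a test. A gene is called higher or lower here when FPKM + 1 differed at least 2-fold between the libraries, and log2 ratios set FPKM + 1 of the Cre library over that of the control library. This scale understates differences of weakly expressed genes.

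Acetylation of histone lysines loosens chromatin and is read by bromodomain proteins, and deacetylases remove it, mostly as the catalytic subunits of corepressor complexes. Methylation acts through the residue: at H3K4 and H3K36 it marks active genes, at H3K9 and H3K27 silent ones, and at H4K20 it serves replication and heterochromatin. In the heart, class IIa deacetylases hold back MEF2 factors, and the H3K27 methyltransferases keep genes of other lineages off.

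The libraries differed in much more than these enzymes. Arid1a had 12.3 FPKM in the Cre library and 34.9 FPKM in the control library, and its value also covers exons outside a floxed part. All 12 T cell and thymus markers were lower in the Cre library. They summed to 7.02 FPKM there, with 11 of 12 under 1 FPKM, and to 2833 FPKM in the control library. The 12 cell cycle markers were all lower too, with sums of 107 and 971 FPKM in the Cre and control libraries, and 5 of 6 thymic epithelium markers were lower, with sums of 60.3 and 487 FPKM. All 7 lung and airway markers were higher, with sums of 17837 FPKM in the Cre library and 4126 FPKM in the control library. Working cardiomyocyte markers were higher in 3 of 9 genes and summed to 20713 and 14425 FPKM, fibroblast markers in 1 of 6 (2510 and 1975 FPKM), endothelial markers in 0 of 5 (292 and 205 FPKM) and smooth muscle and pericyte markers in 2 of 5 (1038 and 638 FPKM). Among macrophage markers 1 of 5 was lower (172 and 209 FPKM), and among B cell markers 1 of 3 was lower (8.38 and 11.3 FPKM over 4 genes). Pacemaker markers were weak in both libraries, with sums of 55.0 and 37.8 FPKM over 10 genes, and Hcn4 itself had 0.719 FPKM in the Cre library and 0.605 FPKM in the control library. Xist had 93.2 FPKM in the Cre library and 0.379 FPKM in the control library, while the Y-linked Eif2s3y had 0.118 and 85.8 FPKM, so sex and genotype cannot be told apart. The part of these cell types and of sex in the values below was not tested, and in bulk tissue fewer cells of a type and less RNA per cell cannot be told apart.

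Of the 56 members, 10 were lower in the Cre library and 0 were higher, where 10.4% of all genes were lower and 6.08% were higher. The lower members, from the largest difference, were Ezh2, Hdac7, Suv39h1, Hdac1, Suv39h2, Kdm1b, Kdm3a, Sirt7, Kdm6b and Setd7. Their log2 ratios ran between -3.17 and -1.03. A further 15 members lay between -1 and -0.5, which is 26.8% of members and 15.3% of all genes. In all, 40 of 56 members lay below equal expression, against 54% of all genes, and 16 lay above it, against 46%. The median log2 ratio was -0.43 for the members and -0.07 for all genes. Relative to the median of all genes the members stood at -0.36. This difference was -0.25 with a pseudocount of 5 and -0.40 in TPM, and centring cannot change it. Scaling both libraries to the same upper quartile moved the median of all genes to 0.13, and higher genes then made up 54.6% of all called genes in place of 36.8%. With that scaling 5 members were lower and 0 higher, and the 8.93% of members that were lower lay close to the 8.09% of all genes. Centring the ratios on fibroblast, endothelial and smooth muscle markers (the tissue-marker centring, chosen after seeing the data) moved the median of all genes to -0.66, left 4.84% of all called genes on the higher side and made 28 members lower and 0 higher, which is 50% of members lower against 30% of all genes. Summed over the 56 members, expression was 672 FPKM in the Cre library and 1049 FPKM in the control library.

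**Figure D1:**
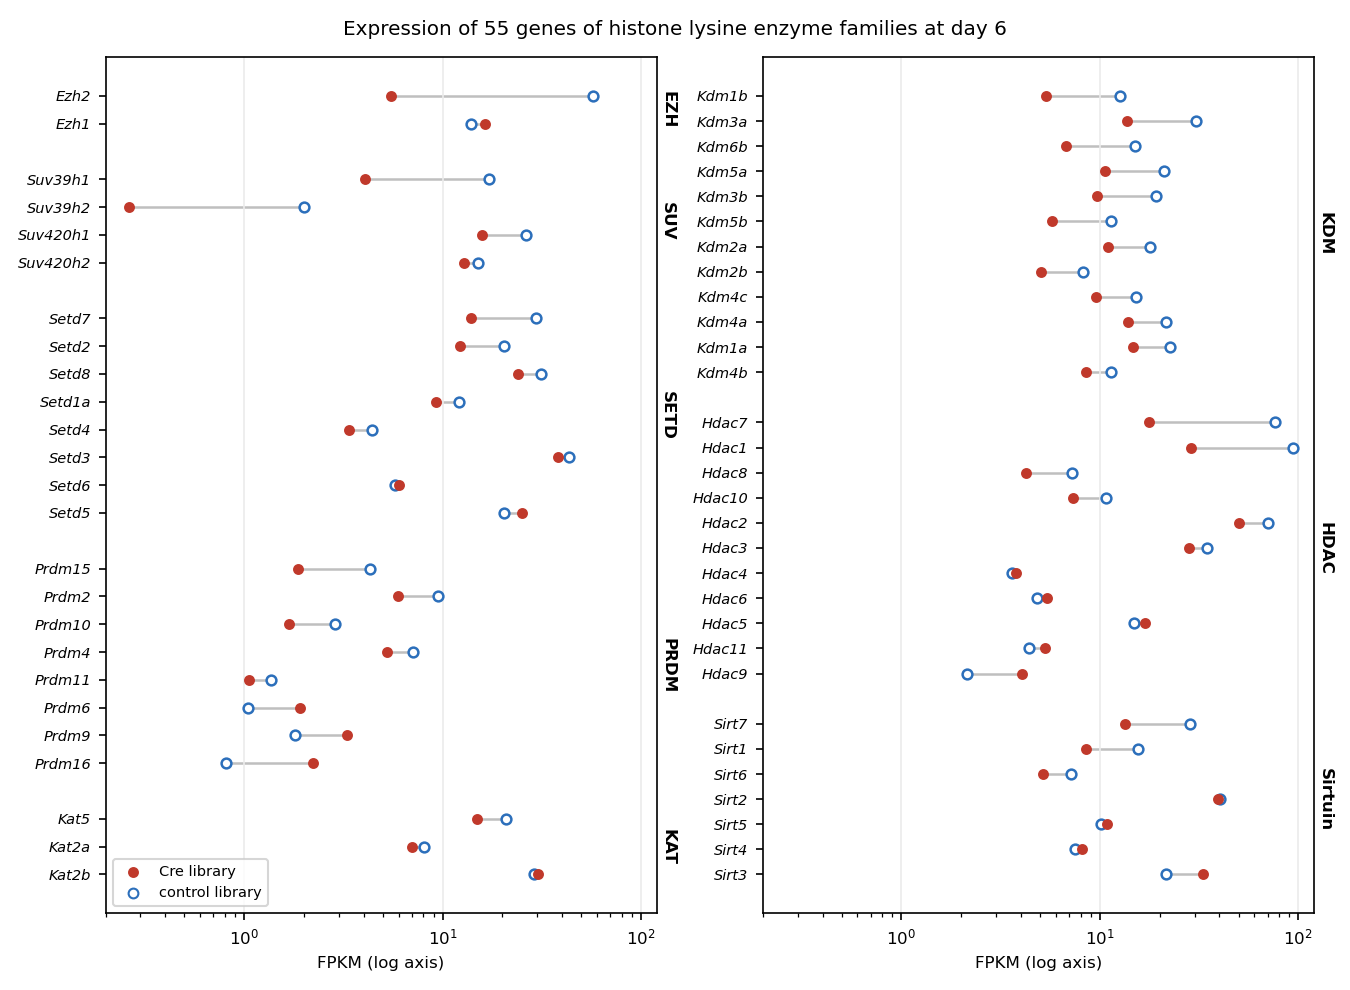
Expression of 55 of the 56 members in the Cre library (filled red points) and the control library (open blue points), in FPKM on a log axis, grouped by family and joined by a grey line. Ezh2 shows the widest gap among well-expressed members, at 5.50 FPKM in the Cre library and 57.5 FPKM in the control library, and all 12 Kdm genes have the red point on the left.

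Suv39h2 passed the minimum of 1 FPKM with a mean of 1.13 FPKM through its control value alone, and Prdm16, with a mean of 1.52 FPKM, passed it through its Cre value. The 3 genes left out lay well under it, with means of 0.228 FPKM for Prdm1, 0.155 FPKM for Prdm8 and 0.110 FPKM for Kdm4d. The authors' deposited table called 0 of the 56 members significant, where it called 0.656% of all genes lower and 0.0149% higher. An unadjusted p-value under 0.05 stands beside 4 members in the authors' deposited table. For Ezh2 the authors' deposited table has p = 0.00045 with q = 0.0612. For Suv39h1, Hdac1 and Hdac7 the authors' deposited table gives p-values of 0.0308, 0.0341 and 0.0474, and q-values of 0.630, 0.656 and 0.755. These p-values describe the pair of libraries, since neither genotype was repeated.

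The methyltransferases of H3K27 showed the largest contrast within a family. Ezh2, the catalytic subunit of PRC2 that is known to prevail in dividing cells, had 5.50 FPKM in the Cre library and 57.5 FPKM in the control library (log2 ratio -3.17, or 9.01-fold lower on the FPKM + 1 scale). Its paralogue Ezh1, known to prevail in resting tissue, had 16.4 FPKM in the Cre library and 14 FPKM in the control library. Its log2 ratio of 0.22 turned negative only with the tissue-marker centring. The order of the pair was therefore opposite in the libraries. Ezh2 made up 25.1% of the summed FPKM of the pair in the Cre library and 80.5% in the control library, and this share does not depend on how the libraries are scaled to each other. Among the 56 members Ezh2 stood at rank 37 in the Cre library and rank 4 in the control library, while Ezh1 stood at ranks 12 and 29. In mm9 coordinates Ezh2 spans chr6:47480272-47545029 and Ezh1 spans chr11:101052428-101087764.

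The sequences before the annotated starts of this pair and of Suv39h1 are shown because Ezh2 and Ezh1 are the pair of paralogues whose proportion differed most between the libraries of the 20 pairs compared, and because Suv39h1 is the lower member that holds an E2F word. They come from RefSeq on GRCm38.p6, a later build than that of the expression table, and each covers bases 153 to 29 before the start on the minus strand. Capitals mark the CCAAT box, the binding motif of NF-Y, on either strand.
Ezh2, chr6:47595059-47595183: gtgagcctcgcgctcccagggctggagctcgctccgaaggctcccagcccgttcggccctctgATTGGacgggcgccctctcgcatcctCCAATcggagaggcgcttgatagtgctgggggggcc
Ezh1, chr11:101226492-101226616: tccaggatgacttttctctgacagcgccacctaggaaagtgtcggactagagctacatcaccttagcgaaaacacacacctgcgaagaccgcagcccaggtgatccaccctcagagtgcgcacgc
Suv39h1, chrX:8074789-8074913: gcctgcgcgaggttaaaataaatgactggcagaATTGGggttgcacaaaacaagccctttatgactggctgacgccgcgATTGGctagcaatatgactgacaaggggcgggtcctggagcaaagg
By the GENCODE M21 annotation the Ezh1 and Suv39h1 stretches lie outside any gene, and the Ezh2 stretch lies in no exon but within the span of Ezh2, which has a transcript that starts further upstream. The Ezh2 stretch holds 11 CpG and has a GC content of 69.6%, and the Ezh1 stretch holds 7 CpG and has 56%.

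Windows of 250 bases before the start were found for 45 of the 56 members, 8 of them among the 10 lower ones. CCAAT was present in 25 of the 45 members (55.6%) and in 37.5% of the 27025 genes with a window. These 27025 genes were taken without a minimum of expression, whereas the members had passed 1 FPKM. The shares in this paragraph therefore compare unlike sets of genes. Members had more windows, 1.51 per gene against 1.22 for all genes, so more sequence was searched for each. Counted by window, CCAAT was present in 42.6% of the 68 member windows and in 33.8% of all windows. It was present in 3 of the 8 lower members (Ezh2, Suv39h1 and Kdm3a). An E2F word, any of TTTGGCGC, TTTCCCGC, TTTGCCGC and TTTCGCGC, was present in 5 of 45 members (11.1%) and in 2.16% of all genes with a window. By window the shares were 7.35% and 1.86%. The 5 members were Suv39h1, Prdm4, Suv420h2, Kat2a and Sirt4. Suv39h1 had a log2 ratio of -1.84, while the other 4 lay between -0.37 and 0.11. The Suv39h1 word lies 64 to 57 bases before the second annotated start, in an intron of the longer transcript and within the span of Gm14820 on the other strand, and is in capitals here.
Suv39h1, chrX:8074408-8074435: gaaggccggcGCGGCAAAcgtgggggcc
The NRF1 word GCATGCGC was present in Sirt6 and Sirt7 (4.44% of members, 2.56% of all genes with a window). All words were searched on both strands, and they do not overlap one another in the stretches shown. The windows of the members also had a higher median GC content, 61.2%, than the 52.4% of all windows. These matches describe letters and not bound sites.

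The methyltransferases of H3K9 and H4K20 in the Suv group lay below equal expression in 4 of 4 genes under all of the scalings tried. In the main setting 54% of all genes lay below it. At the same upper quartile Suv420h2 was at equal expression to within rounding, with a log2 ratio of -0.006. Of these 4 genes, 2 were lower (50%, against 10.4% of all genes). This share rests in part on Suv39h2, which passed the minimum of 1 FPKM through its control value alone. With a minimum of 5 FPKM Suv39h2 dropped out, and of the 3 genes left only Suv39h1 was lower. Suv39h1, which writes H3K9 trimethylation at pericentric heterochromatin, had 4.06 FPKM in the Cre library and 17.1 FPKM in the control library (log2 ratio -1.84). Suv39h2, which shares that activity, had 0.263 FPKM in the Cre library and 2 FPKM in the control library (log2 ratio -1.25). The locus listed for Suv39h2 lies wholly within that listed for Dclre1c, which had 3.77 and 16.9 FPKM in the Cre and control libraries. Strand use is not stated, so the genes could share reads. The H4K20 enzymes differed less. Suv420h1 had 15.8 FPKM in the Cre library and 26.2 FPKM in the control library, and Suv420h2 had 12.8 and 15.0 FPKM, with log2 ratios of -0.70 and -0.22. Within the group the Suv39h pair took 12.3% (Suv39h1) and 0.799% (Suv39h2) of the summed FPKM of the 4 genes in the Cre library, against 28.4% and 3.31% in the control library.

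Among 8 Setd genes 1 was lower (12.5%, near the 10.4% of all genes). Setd7, a monomethyltransferase of H3K4 and of other proteins, had 13.9 FPKM in the Cre library and 29.5 FPKM in the control library. Its log2 ratio of -1.03 was just past the limit, and the call was lost with a pseudocount of 5, the same upper quartile or centring on all genes. The locus listed for Setd7 lies wholly within that listed for 5031434O11Rik, which had 0.893 and 1.03 FPKM in the Cre and control libraries. Setd2, which trimethylates H3K36 in transcribed genes, had 12.3 FPKM in the Cre library and 20.4 FPKM in the control library. Setd1a, an H3K4 methyltransferase, had 9.31 and 12.2 FPKM, and Setd8, which monomethylates H4K20 and now bears the symbol Kmt5a, had 23.9 and 31.5 FPKM. The most abundant gene of the family was Setd3, an actin histidine methyltransferase, at 38.1 FPKM in the Cre library and 43.5 FPKM in the control library. Setd5 had 25.1 and 20.4 FPKM, a log2 ratio of 0.29, Setd6 had 6.05 and 5.76 FPKM, and Setd4 had 3.37 and 4.40 FPKM. Setd2 stood at 0.490 times Setd5 in the Cre library and at 0.999 times Setd5 in the control library.

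The Prdm genes, which pair a domain related to SET with zinc fingers, were weakly expressed and lay on both sides. None of 9 was lower or higher. Prdm2, the most abundant, had 5.96 FPKM in the Cre library and 9.44 FPKM in the control library. Prdm15 had 1.87 and 4.30 FPKM, a log2 ratio of -0.89, Prdm10 had 1.69 and 2.87 FPKM, Prdm4 had 5.26 and 7.11 FPKM, and Prdm11 had 1.05 and 1.36 FPKM. Values in the Cre library were the larger ones for Prdm16, Prdm9 and Prdm6, among others. Prdm16, a determinant of brown fat that also acts in the heart muscle, had 2.23 FPKM in the Cre library and 0.805 FPKM in the control library. Its log2 ratio of 0.84 was the highest of all members. It passed 2-fold with a pseudocount of 0.1 or with values rescaled to TPM. Prdm9, which directs meiotic recombination, had 3.29 and 1.79 FPKM, and Prdm6, known from vascular smooth muscle, had 1.91 and 1.05 FPKM.

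The 12 Kdm members were all below equal expression, under all scalings and pseudocounts tried. Of these 12, 3 were lower (25%, against 10.4% of all genes). This does not hold for every demethylase. Of 8 others under different symbols, 6 lay below equal expression, while Hr and Jhdm1d (now Kdm7a) had log2 ratios of 0.37 and 0.20. The log2 ratios of the 12 Kdm members spanned a narrow range, between -1.11 and -0.37, with a median of -0.77 (all genes -0.07). Kdm1b, a flavin-dependent H3K4 demethylase, had 5.33 FPKM in the Cre library and 12.7 FPKM in the control library. Kdm3a, an H3K9 demethylase known to respond to hypoxia, had 13.7 FPKM in the Cre library and 30.6 FPKM in the control library. Kdm6b, which removes H3K27 methylation, had 6.78 and 15.0 FPKM in the Cre and control libraries. These 3 calls were lost with a pseudocount of 5 or the same upper quartile, and that of Kdm6b also with centring on all genes. Kdm5a and Kdm5b, which demethylate H3K4, stood at 10.6 and 5.76 FPKM in the Cre library and 21.1 and 11.4 FPKM in the control library. Kdm3b had 9.64 and 19.1 FPKM in the Cre and control libraries. Kdm1a, the demethylase of the CoREST complex, had 14.8 FPKM in the Cre library and 22.6 FPKM in the control library. The H3K36 demethylases Kdm2a and Kdm2b, and Kdm4a, Kdm4b and Kdm4c, which act on H3K9 and H3K36, had log2 ratios between -0.66 and -0.37.

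Several of the chosen pairs of demethylase paralogues kept nearly the same proportion to each other in both libraries. Kdm2a had 2.17 times the FPKM of Kdm2b in the Cre library and 2.17 times in the control library. Kdm5a to Kdm5b stood at 1.85 in the Cre library and 1.84 in the control library, Kdm4a to Kdm4c at 1.44 and 1.42, and Kdm3a to Kdm3b at 1.43 and 1.60. Kdm4b was in none of the pairs. Of the summed FPKM of the Kdm members, Kdm4b took 7.47% in the Cre library and 5.48% in the control library. Kdm4a took 12.0% and 10.4%, and Kdm4c took 8.36% and 7.33%. Among the pairs, Kdm1a to Kdm1b moved further, at 2.77 in the Cre library and 1.79 in the control library. Such ratios are free of the scaling between libraries but have no error, since each rests on 1 library.

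**Figure D2:**
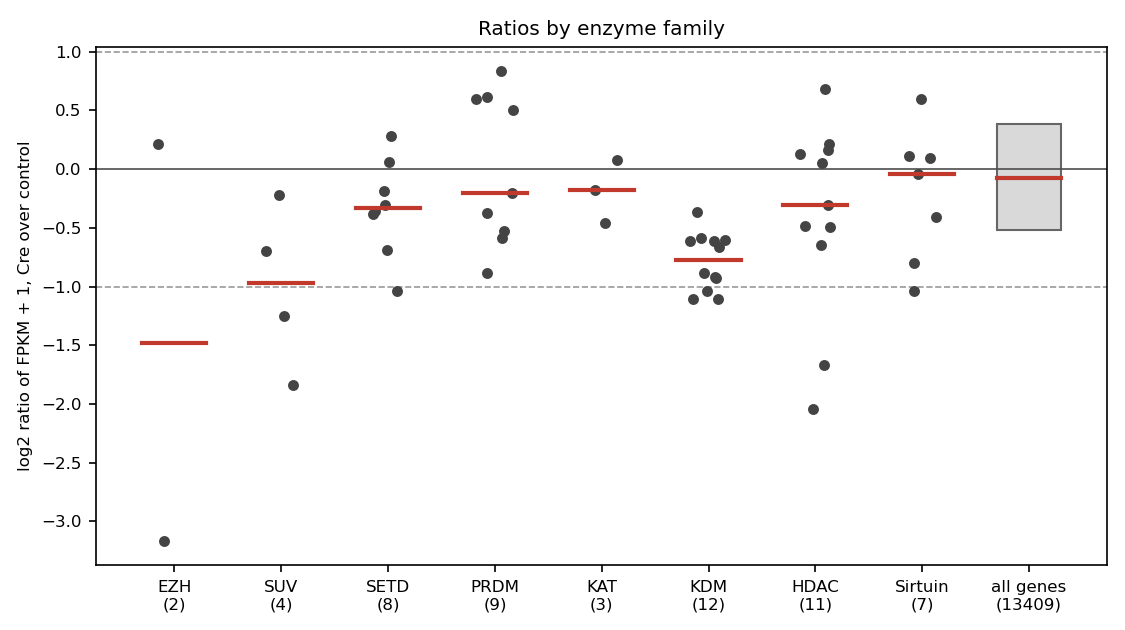
Log2 ratio of FPKM + 1 (Cre over control, y axis) of each member by family, with the number of genes in brackets; red bars are medians, dashed lines mark 2-fold, and the grey box gives the quartiles of all 13409 genes. The 12 Kdm points lie together between -1.11 and -0.37, whereas Ezh, Hdac and Prdm genes spread to both sides of 0.

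Classical deacetylases were lower in 2 of 11 genes (18.2%, against 10.4% of all genes), and the classes differed among themselves. All 4 class I genes lay below equal expression under all scalings tried, with a median log2 ratio of -0.56. Hdac1, a catalytic subunit of the NuRD, SIN3 and CoREST complexes, had 28.7 FPKM in the Cre library and 93.6 FPKM in the control library (log2 ratio -1.67). Its close paralogue Hdac2 had 50.2 FPKM in the Cre library and 70.7 FPKM in the control library (log2 ratio -0.49). Hdac1 stood at 0.572 times Hdac2 in the Cre library and at 1.32 times Hdac2 in the control library, so the more abundant member of the pair was Hdac2 in the Cre library and Hdac1 in the control library. Among the 56 members Hdac2 was at rank 1 in the Cre library, and Hdac1 at rank 1 in the control library. Hdac3, the deacetylase of NCoR/SMRT complexes, had 28 FPKM in the Cre library and 34.9 FPKM in the control library, and Hdac8 had 4.26 and 7.21 FPKM. Summed over the class, expression was 111 FPKM in the Cre library and 206 FPKM in the control library.

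Class IIa deacetylases, which shuttle out of the nucleus on phosphorylation, were split. Hdac7, known from thymocytes and endothelium, had 17.7 FPKM in the Cre library and 76.3 FPKM in the control library (log2 ratio -2.04). The table gives it the same locus as Slc48a1, which had 30.7 and 32.5 FPKM in the Cre and control libraries, so reads of the overlap may be shared. Hdac5 had 16.9 FPKM in the Cre library and 14.9 FPKM in the control library, Hdac4 had 3.77 and 3.60 FPKM, and Hdac9 had 4.05 and 2.15 FPKM. These 3 had log2 ratios of 0.17, 0.05 and 0.68, and with the tissue-marker centring only Hdac9 of the 3 stayed above equal expression. Hdac7 made up 41.8% of the class in the Cre library and 78.7% in the control library, and Hdac7 stood at 1.05 times Hdac5 in the Cre library and at 5.11 times Hdac5 in the control library. Of the remaining classes, Hdac10 had 7.34 and 10.7 FPKM in the Cre and control libraries, Hdac6, a tubulin deacetylase, had 5.39 and 4.84 FPKM, and Hdac11 had 5.27 and 4.41 FPKM.

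**Figure D3:**
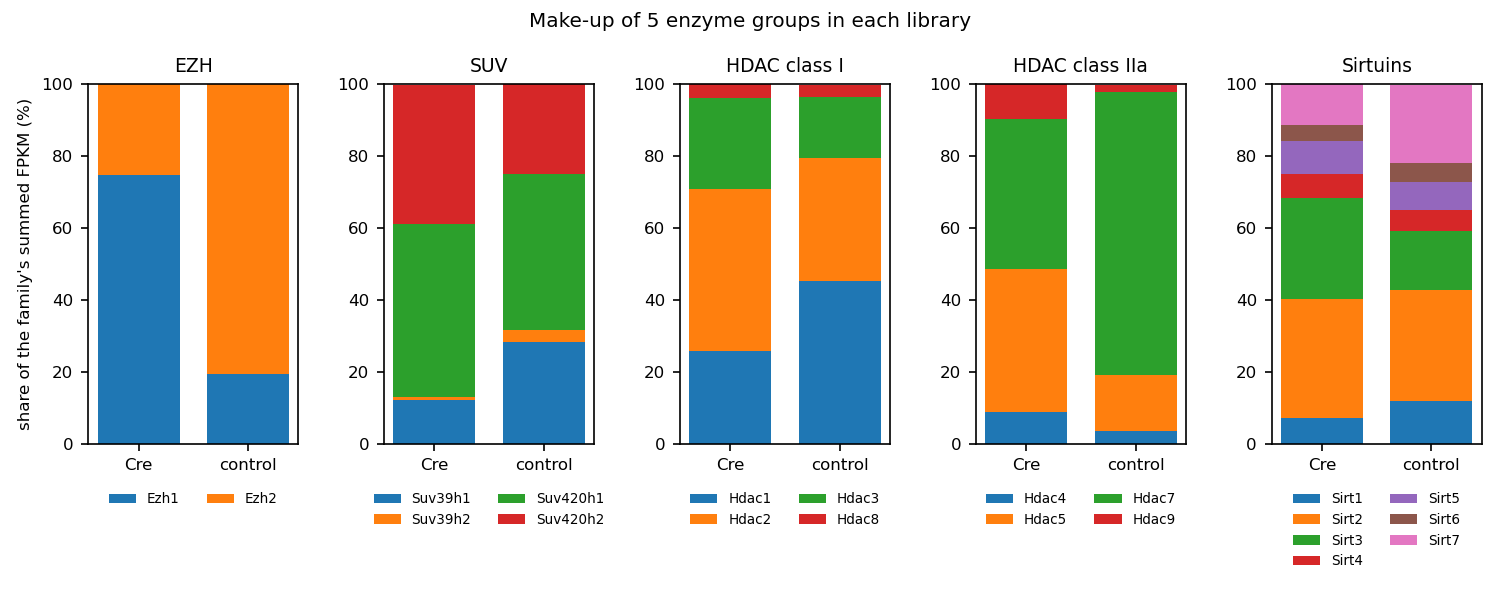
Share of each gene in the summed FPKM of its group (y axis, %), with the Cre library on the left and the control library on the right of each pair of bars. Ezh2 takes 25.1% of the Ezh pair in the Cre library against 80.5% in the control library, and Hdac7 takes 41.8% against 78.7% of class IIa.

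Among 7 sirtuins 1 was lower (14.3%, near the 10.4% of all genes). The 3 nuclear sirtuins lay below equal expression under all scalings tried. Sirt7, which acts at ribosomal DNA, had 13.4 FPKM in the Cre library and 28.5 FPKM in the control library. Its log2 ratio was -1.04, and the call was lost with a pseudocount of 5, the same upper quartile or centring on all genes. Sirt1 had 8.56 FPKM in the Cre library and 15.6 FPKM in the control library, and Sirt6 had 5.14 and 7.14 FPKM. The 3 mitochondrial sirtuins lay above equal expression, although with the tissue-marker centring only Sirt3 did. Sirt3, the main deacetylase of mitochondria, had 33.1 FPKM in the Cre library and 21.5 FPKM in the control library (log2 ratio 0.60). The locus listed for Sirt3 lies wholly within that listed for Ric8, which had 14.8 and 20.5 FPKM, so reads could be shared. Sirt4 had 8.13 and 7.45 FPKM in the Cre and control libraries, and Sirt5, a desuccinylase, had 10.9 and 10.1 FPKM, with log2 ratios of 0.11 and 0.09 that are close to equal expression. Sirt2, mainly cytosolic, had 39.3 FPKM in the Cre library and 40.4 FPKM in the control library and was the most abundant sirtuin in both. Its log2 ratio of -0.04 became 0.18 at the same upper quartile and 0.03 with centring on all genes. The locus listed for Sirt2 lies wholly within that listed for Gm19897, which had 0.359 and 1.52 FPKM. Sirt3 stood at 3.87 times Sirt1 in the Cre library and at 1.37 times Sirt1 in the control library. Working cardiomyocyte markers also had their larger value in the Cre library in 9 of 9 genes. So did 6 of 6 fibroblast, 5 of 5 endothelial, 5 of 5 smooth muscle and pericyte and 7 of 7 lung and airway markers. All T cell and thymus, cell cycle and thymic epithelium markers had their larger value in the control library. The part of any of these cell types in the sirtuin values was not tested.

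Of the 3 lysine acetyltransferases with Kat symbols, 0 were lower or higher. Kat2b had 30.4 FPKM in the Cre library and 28.8 FPKM in the control library. Its paralogue Kat2a, an acetyltransferase of SAGA complexes, had 6.99 and 8.04 FPKM. Kat5, the catalytic subunit of the TIP60 complex, had 14.9 FPKM in the Cre library and 20.9 FPKM in the control library. The directions of Kat2a and Kat2b changed with the scaling, with Kat2a above equal expression at the same upper quartile and Kat2b below it with the tissue-marker centring.

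Chosen writers and erasers of the same mark were set side by side. At H3K9 all 6 writers (the Suv39h pair, Setdb1, Setdb2, Ehmt1 and Ehmt2) and all 5 erasers lay below equal expression, with median log2 ratios of -0.80 and -0.61. At H3K4 the 4 writers and the 4 erasers had medians of -0.92 and -0.90, and at H3K36 the 5 writers and 2 erasers had medians of -0.69 and -0.64, with all 7 below equal expression except Ash1l at the same upper quartile. At H3K27 the eraser Kdm6b and the writer Ezh2 were both lower, and Ezh1 was not. The 3 writers of H4K20 had a median of -0.38. These sets are incomplete. They leave out Setd7 and Prdm9 (log2 ratios -1.03 and 0.62), Smyd1 and Smyd2 (0.89 and 0.62) and, at H3K36, Kdm4a, Kdm4b and Kdm4c. Demethylases without a Kdm symbol are also missing from the erasers, among them Phf2, Phf8 and Jmjd1c (-1.62, -1.03 and -0.64). Hr and Jhdm1d (0.37 and 0.20) are missing too. No pattern across all writers or all erasers can therefore be read from these sets. The grouping was made with the values known and says nothing of the marks themselves.

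Genes around these enzymes were described with 15 companion lists. Counted once each, 190 companion genes passed the minimum, of which 28 were lower and 1 was higher, with 168 below equal expression and a median log2 ratio of -0.53. Over all genes 10.4% were lower, 6.08% higher and 54% below equal expression, and the counts of single lists are to be read against these shares. Lists such as SIN3, the COMPASS core and the SAGA and TIP60 partners lie under the share of lower genes. The remaining enzymes had similar medians. Other acetyltransferases had a median of -0.47 with 0 of 13 called, arginine methyltransferases -0.46 with 0 of 8 called, other demethylases -0.29 with 2 of 8 lower, and other methyltransferases -0.52 with 3 of 19 lower. Whsc1, an H3K36 dimethyltransferase now named Nsd2, had 6.36 FPKM in the Cre library and 29 FPKM in the control library. Mll1 and Mll2 (by its accession Kmt2d), both H3K4 methyltransferases, had 6.92 and 8.47 FPKM in the Cre library and 15.3 and 18.2 FPKM in the control library. Smyd1, a methyltransferase of striated muscle, had 74.8 FPKM in the Cre library and 39.8 FPKM in the control library, just short of 2-fold. Phf2, an H3K9 demethylase, had 8.66 and 28.8 FPKM.

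Partners of Ezh2 in PRC2 were below equal expression in 9 of 9 genes (8 of 9 at the same upper quartile, where Rbbp7 was above) and lower in 4, with a median of -0.83. This direction was not particular to PRC2. It also held for 11 of 11 NuRD genes, 13 of 13 SIN3 genes, 10 of 10 COMPASS core genes and 15 of 15 readers. At the same upper quartile these counts were 10 of 11, 12 of 13, 9 of 10 and 13 of 15. Suz12, a core subunit of PRC2, had 14.7 FPKM in the Cre library and 37.0 FPKM in the control library. Mtf2 had 9.68 and 37.6 FPKM, Phf19 had 0.773 and 4.48 FPKM, and Rbbp4, which NuRD shares, had 32.3 and 68.4 FPKM. PRC1 had a median of -0.38 with 1 of 18 lower, Cbx2 at 1.85 and 5.06 FPKM. Of the complexes that hold Hdac1 and Hdac2, NuRD had a median of -0.72 with 2 of 11 lower, SIN3 -0.61 with 1 of 13 lower, and CoREST -0.48 with 1 of 8 lower. Mta2, a NuRD subunit, had 22.2 FPKM in the Cre library and 57.3 FPKM in the control library. NCoR/SMRT, the complex of Hdac3, had a median of -0.55 with 0 of 5 called, and the COMPASS core had -0.52 with 1 of 10 lower. Partners of SAGA, TIP60 and related acetyltransferase complexes had a median of -0.57 with 3 of 31 lower, led by Msl3 at 23.0 and 65.1 FPKM.

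Among readers of the marks 4 of 15 were lower, with a median of -0.82. The HP1 genes Cbx1 and Cbx3, whose proteins bind methylated H3K9, had 18.8 and 66.0 FPKM in the Cre library and 51.8 and 160.4 FPKM in the control library, and their partner Trim28 had 20.0 and 56.4 FPKM. In the DNA methylation list 4 of 11 were lower, with a median of -0.42. Uhrf1, which brings Dnmt1 to replicated DNA, had 3.86 FPKM in the Cre library and 55.5 FPKM in the control library, and Dnmt1 had 7.80 and 44.0 FPKM. In the list of class IIa partners 3 of 13 were lower and 1 was higher, with a median of -0.20 that became 0.02 at the same upper quartile. The medians of the other 14 lists stayed negative in all alternatives run. The kinase genes Camk4 and Prkd2 had 0.493 and 4.84 FPKM in the Cre library and 22.4 and 26.3 FPKM in the control library. Mef2c, a target of class IIa repression in muscle, was the companion gene called higher, at 13.4 FPKM in the Cre library and 6.10 FPKM in the control library.

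**Figure D4:**
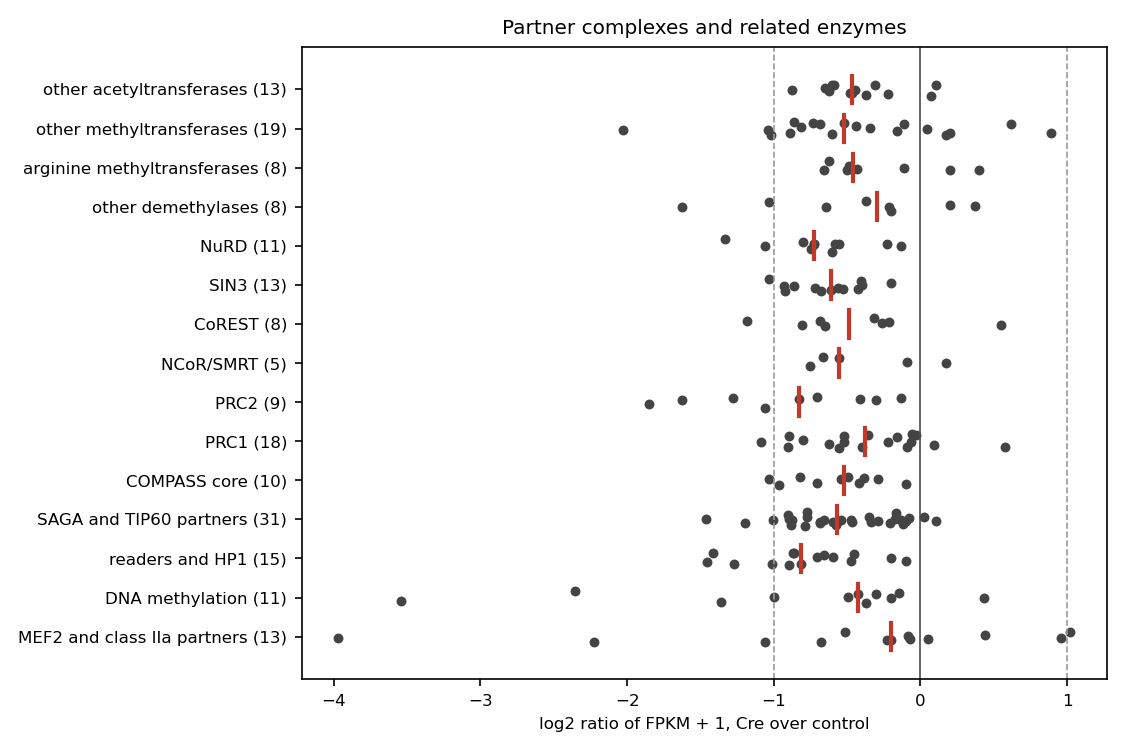
Log2 ratio of FPKM + 1 (Cre over control, x axis) of the genes of 15 companion lists, with the number of genes in brackets; red bars are medians and dashed lines mark 2-fold. Medians lie between -0.83 (PRC2) and -0.20 (MEF2 and class IIa partners), and Uhrf1 and Camk4 are the 2 points furthest to the left.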

How the data were processed

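The 2 day-6 libraries, 1 per genotype, were made from poly-A RNA. TopHat, Bowtie and Cufflinks and the build mm9 are named per the submitters' processing notes, without roles. Neither their versions nor the annotation is given in the sources used here. Expression values, as deposited, were taken as FPKM because the columns have the Cufflinks layout, per the file headers. Beside them the authors deposited a log2 fold change, a score (their test statistic), a p-value and a q-value for each gene. Read depth is unknown, so no counting interval is given. In 2 rows the comparison was not completed and they were left out, 21 symbols turned into dates were restored from accessions, and 10 small-RNA genes over the minimum were set aside.

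Ratios were log2((Cre + 1)/(control + 1)), computed in Python 3.11.15 with pandas 2.3.3 and tested on simulated data. Genes were named by rule: all members, up to 4 genes with the largest ratios per companion list, Arid1a, and 11 marker lists as sums. Some genes were also named outside this rule, among them Hr, Jhdm1d, Smyd2, Ash1l, Rbbp7, Hcn4, Xist and Eif2s3y. Members, lists, subgroups and motifs were chosen with earlier results of these data known. Alternatives were pseudocounts of 0.1 and 5, minimums of none and 5 FPKM, the same upper quartile, TPM, centring on all genes, a 1.5-fold limit, small RNAs kept and the tissue-marker centring. The values of 1 member are not reported here; it is kept in the counts and medians.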

Additional observations from a re-analysis of the deposited data

How the results depend on the processing

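The members' median log2 ratio stayed negative in all alternatives run. It was -0.30 with a pseudocount of 5, -0.54 with a minimum of 5 FPKM, -0.23 with the same upper quartile and -1.02 with the tissue-marker centring, which was added after seeing the data. The count of lower members was 4 with a pseudocount of 5, 5 with the same upper quartile, 22 with a 1.5-fold limit and 28 with the tissue-marker centring. As shares these are 7.14%, 8.93%, 39.3% and 50% of members, against 6.00%, 8.09%, 22% and 30% of all genes, so with the first pair of settings the members lay near all genes. The 4 that kept the call with a pseudocount of 5 were Ezh2, Hdac7, Suv39h1 and Hdac1. The count of higher members was 1 with a pseudocount of 0.1, 1 in TPM (Prdm16 in both) and 5 with a 1.5-fold limit. Over all genes, higher genes numbered 1262 with a pseudocount of 0.1, 238 with one of 5, 449 with a minimum of 5 FPKM, 1304 with the same upper quartile, 2226 with a 1.5-fold limit and 205 with the tissue-marker centring. Lower genes numbered 805 with a pseudocount of 5, 2947 with a 1.5-fold limit and 4029 with the tissue-marker centring. In the main setting 815 genes were higher and 1397 lower. No member past 2-fold changed sign in any alternative. The cause of these shifts was not tested. No paired analysis was possible because each genotype has 1 library. Depth is unknown, so weak members such as Suv39h2, Prdm11 and Prdm16 carry the least certain ratios.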

Other observations

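Of 6 neighbouring pairs of members, the closest is Hdac6 and Suv39h1, 113 kb apart on the X chromosome of mm9, with log2 ratios of 0.13 and -1.84. Suv420h1 and Kdm2a, 498 kb apart on chromosome 19, had -0.70 and -0.66. Kat2a and Ezh1, 479 kb apart on chromosome 11, had -0.18 and 0.22, and Hdac5, a further 969 kb along, had 0.17. Kdm2a and Kat5, 1206 kb apart on chromosome 19, had -0.66 and -0.46, and Kdm2b and Setd8, 1451 kb apart on chromosome 5, had -0.61 and -0.38. The 3 X-linked members (Hdac6, Hdac8 and Suv39h1) had a median of -0.64, in libraries that also differ in Xist and in the Y-linked Eif2s3y.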
